A study of Caenorhabditis elegans with 2 samples.

Results

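The genes described here are 36 Caenorhabditis elegans transcription factor genes, out of 19973 nuclear protein-coding genes. They are switched on in the embryo and act in the fates of its lineages and cell types. They are a list of named genes, with no threshold on a measured value, proposed with earlier results of these data known. They comprise 6 endoderm regulators, 6 mesoderm regulators, 5 epidermal regulators, 7 neural regulators, the 6 genes of the Notch-responsive REF-1 family, and 6 homeobox genes that act by position along the embryo. What was measured at them is the occupancy of SEA-1 by chromatin immunoprecipitation and sequencing (ChIP-seq). SEA-1 is a T-box factor encoded on an autosome, and it is known for its part in reading the ratio of X chromosomes to autosomes that sets the sex of the embryo.

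The data came from 1 group with 2 biological replicates of strain OP129, early embryos (0 hour) collected by egg bleaching. The strain carries the integrated array wgIs129, a sea-1 clone (P000004_E06) tagged with TY1, EGFP and 3xFLAG and marked by unc-119(+), in the unc-119(ed3) mutant background, and both replicates share all of these. Precipitation was with an antibody against GFP, so the tagged protein from the transgene was measured, and the labels do not name the promoter that drives it. Whole organisms were used, so a site occupied strongly in few cells and one occupied weakly in many cells cannot be told apart. There was no second condition, control libraries named as possible in the labels were not analysed here, and the files are peak lists whose sequencing depth is unknown. The lists hold no expression values, so the labelled stage could not be checked by marker genes. The native sea-1 and unc-119 genes, copies of which the array carries, lie apart from the members. The nearest to sea-1 on chromosome II was hlh-1, 844981 bp away, and the nearest to unc-119 on chromosome III was vab-7, 11409 bp away.

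Lineage assignment in this embryo is a relay from maternal to zygotic regulators. Maternal SKN-1 turns on the GATA factor genes med-1 and med-2 in the mother cell of endoderm and mesoderm, which act on end-1 and end-3 in the endoderm precursor, and these in turn act on elt-2 and elt-7 in the intestine. Maternal PAL-1 acts in the posterior lineages on muscle genes such as hlh-1, unc-120 and hnd-1, while elt-1 opens the epidermal program and proneural basic helix-loop-helix (bHLH) genes open neural programs. Genes of the REF-1 family are direct targets of Notch signalling between embryonic cells, and Hox and other homeobox genes add position along the body.

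Each gene was read in a window that starts 1000 bp before and stops 200 bp past any annotated 5′ end of its transcripts. The value of a gene is the authors' signal value of the strongest peak whose summit lies in that window. It is reported with its percentile among all 19973 coding genes, on which the median gene stands at 50. Each list was read separately, so a replicate's strongest summit can lie away from that of the series list. Ranked lists are long and hold weak as well as strong peaks: the series ranked list has 103831 peaks, that of replicate 1 has 71678 and that of replicate 2 has 68844. A gene with no ranked summit takes a signal value of 0 and shares a percentile of 15.1 in the series list, 20.2 in replicate 1 and 20.6 in replicate 2 with all other such genes. A ranked list keeps only peaks matched between a pair of compared peak sets, which in the series list read here were not the replicates' own ranked peaks, so a missing summit does not show that no signal was there. The conservative list of the series is far shorter, with 1249 peaks. Each ranked peak also carries an irreproducible discovery rate (IDR), which is low where both compared sets rank it high and alike. It is given here as −log10, where higher means more reproducible between those sets.

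As a group the 36 genes stood close to the middle of all coding genes. A ranked summit of the series list lay in the window of 27 members, against 69.9% of coding genes. In replicate 1 this was so for 18 members, against 59.5% of coding genes, and in replicate 2 for 24 members, against 58.8%. The members' median percentile was 53.4 in the series list, 33.3 in replicate 1 and 58.4 in replicate 2, with an SD between replicates of 17.7 (n = 2). No member stands at the replicate 1 median. It is the midpoint between the 20.2 of members without a ranked summit and the lowest member with one, hnd-1 at 46.3. The SD rests on that midpoint as well. The median signal value of the series list was 27.7 over the members and 25.6 over all coding genes. Of the 36 genes, 4 stood in the top 10% of the series list (a signal value of at least 56.5), where 10% of coding genes stand by construction; these were ceh-13, hlh-1, elt-1 and pha-4. With a window of 500 bp upstream to 100 bp downstream 7 members stood there, and ceh-13 was not among them. In each replicate again 4 members reached the top 10%, but only ceh-13 did so in the series list and in both replicates, against 4.67% of coding genes. Windows of 15 members held a ranked summit in both replicates, against 45.3% of coding genes. For 5 members, cnd-1, hlh-25, hlh-26, hlh-27 and hlh-28, no ranked summit was found in the series list, in the other ranked list of the series or in either replicate, against 19.6% of coding genes.

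**Figure D1:**
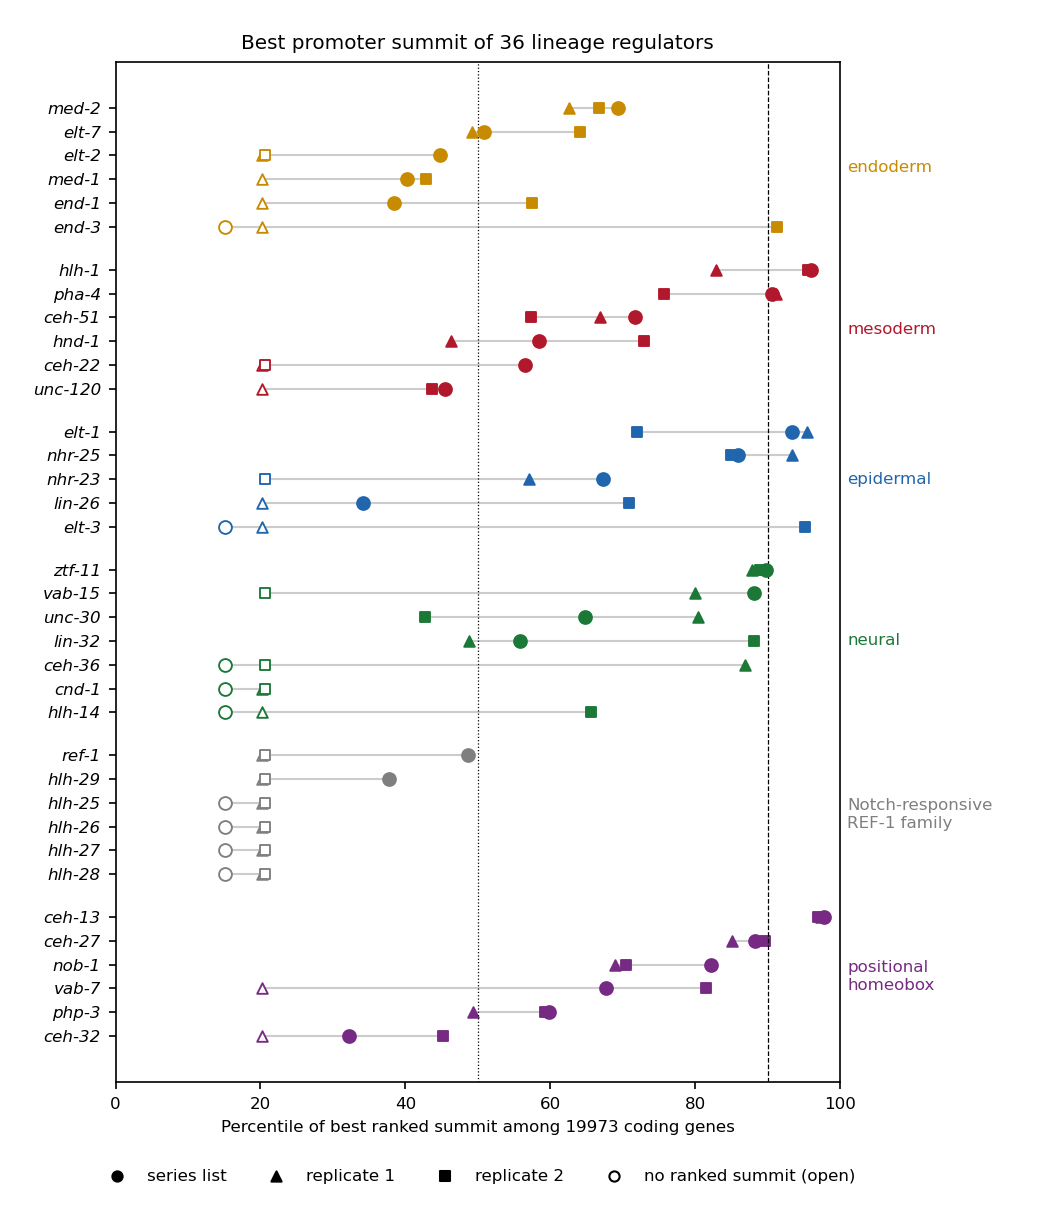
Percentile of the strongest ranked summit of each of the 36 genes among 19973 coding genes (x axis, percentile) in the series list (circles), replicate 1 (triangles) and replicate 2 (squares), by class. Open symbols are genes with no ranked summit, the dotted line is the median gene at 50 and the dashed line the 90th percentile; ceh-13 has all 3 symbols to the right of the dashed line, and the 4 REF-1 genes at the bottom of their class have open symbols only.

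The only member with a summit in the conservative list was ceh-13, against 3.28% of coding genes. The second thresholded list of the series also held a summit of ceh-13 and of no other member, against 3.28% of coding genes. Neither replicate's own thresholded list held a summit of any member, against 1.54% of coding genes in replicate 1 and 1.57% in replicate 2. With 2000 bp upstream the conservative list also held a summit of elt-3. Sequences at the strongest series summits are printed for ceh-13 and for a high member of each other class, to show what lies under them. Each runs 60 bases to either side of the summit on the plus strand, 121 bases in all, from the RefSeq WBcel235 genome, and none overlaps an annotated UTR. They stand at III:7554816-7554936 for ceh-13, III:6884347-6884467 for med-2, II:4518428-4518548 for hlh-1, IV:9618962-9619082 for elt-1, X:9846855-9846975 for vab-15 and II:10217953-10218073 for ref-1. Capitals mark matches on either strand to 2 cores spelled out after the sequences, that of GATA factors and that of homeodomain factors.
ceh-13: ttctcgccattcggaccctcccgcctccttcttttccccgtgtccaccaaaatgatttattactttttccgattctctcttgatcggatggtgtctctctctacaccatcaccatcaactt
med-2: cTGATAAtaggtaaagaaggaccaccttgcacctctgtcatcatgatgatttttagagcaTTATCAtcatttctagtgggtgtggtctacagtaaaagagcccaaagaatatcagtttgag
hlh-1: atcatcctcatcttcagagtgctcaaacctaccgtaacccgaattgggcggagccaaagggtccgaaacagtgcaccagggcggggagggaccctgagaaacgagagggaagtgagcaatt
elt-1: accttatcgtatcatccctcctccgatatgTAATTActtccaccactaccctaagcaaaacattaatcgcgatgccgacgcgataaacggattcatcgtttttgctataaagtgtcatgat
vab-15: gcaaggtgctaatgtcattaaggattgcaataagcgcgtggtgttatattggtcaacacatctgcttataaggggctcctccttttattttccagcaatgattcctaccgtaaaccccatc
ref-1: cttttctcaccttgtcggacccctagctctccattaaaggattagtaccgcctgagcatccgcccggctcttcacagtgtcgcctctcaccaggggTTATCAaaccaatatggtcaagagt

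The capitals show GATA cores at the summits of med-2, which has a match on each strand, and of ref-1, a homeodomain core at elt-1, and none of the searched letters at the other summits shown. Within 100 bp of each strongest series summit, on both strands, TGATAA, the core bound by GATA factors, was found at 7 of the 27 members with a ranked summit (25.9%), against 14.9% of 13957 coding genes with one. Those 7 were med-2, elt-2, elt-7, unc-120, lin-26, nhr-23 and ref-1. TAATTA, a core of homeodomain factors, was found at 1 member, elt-1, against 7.37% of those genes. GGTGTGA, the T-box core, was found at 0 members, against 1.79%, and CAGCTG, an E-box of bHLH factors, at 0 members, against 4.72%. None of the 4 motifs contains another, and a match is a description of the sequence only.

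Among the endoderm regulators the series signal was below that of the median gene except at med-2 and elt-7. The highest of the class was med-2 (III:6884503-6885027), a GATA factor gene of the mother cell of endoderm and mesoderm. Its series signal value was 36.9 (percentile 69.4), with 18.6 in replicate 1 and 19.2 in replicate 2 (percentiles 62.6 and 66.7). That summit lay 96 bp upstream of its 5′ end in an intergenic peak (III:6884247-6884566), and both replicates had a ranked summit within 100 bp of it. Its near-copy med-1 (X:12430609-12431133) had 18.7 in the series list (percentile 40.2), no ranked summit in replicate 1 and 7.59 in replicate 2. The peak of med-1 lay at another place, 763 bp upstream. The windows of med-1 and med-2 are 71.3% identical, and in each 87.8% of 36-base words occur once in the genome, so part of the reads from either could map to both.

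Next in the endoderm relay, end-1 (V:13985128-13987074), which specifies the endoderm precursor, had 16.95 in the series list (percentile 38.4), no ranked summit in replicate 1 and 16.03 in replicate 2. Its partner end-3 (V:14014695-14015980) was the lowest of the class, with no ranked summit in the series list or in replicate 1, yet it had 32.01 in replicate 2 (percentile 91.3) and 44.9 in the other ranked list of the series. The intestinal GATA factor gene elt-2 (X:10481240-10483441), which keeps up intestinal fate, had 22.4 in the series list (percentile 44.8), in its own coding exon, and no ranked summit in either replicate. elt-7 (V:4770670-4773086), which acts beside elt-2, had 26.1 in the series list (percentile 50.9), with 13.1 in replicate 1 and 18.3 in replicate 2 (percentiles 49.2 and 64.1). Only med-2 and elt-7 of the 6 genes had a ranked summit in both replicates, against 45.3% of coding genes.

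Each of the 6 mesoderm regulators had a ranked summit in the series list, as did 69.9% of coding genes. The muscle regulator hlh-1 (II:4518574-4522528), the MyoD homolog, had the second highest value of all 36 genes at 73.5 (percentile 95.9). In replicate 1 it had 26.9 (percentile 82.9) and in replicate 2 it had 38.6 (percentile 95.6), at the same site. This intergenic peak (II:4518328-4518647) has its summit 86 bp upstream of a 5′ end and a −log10 IDR of 1.10. The other muscle genes were weaker. hnd-1 (X:11684561-11685788), a Hand-type bHLH gene, had 30.7 in the series list (percentile 58.4), with 11.5 in replicate 1 and 21.4 in replicate 2. unc-120 (I:8460225-8463015), a MADS-box gene of the serum response factor type, was the lowest of the class with 22.8 (percentile 45.4), no ranked summit in replicate 1 and 8.67 in replicate 2.

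The pharyngeal genes and the gene of the MS lineage had values between these. pha-4 (V:20753052-20760317), the FoxA gene that sets pharyngeal identity, had 57.4 in the series list (percentile 90.6), with 32.7 in replicate 1 and 22.5 in replicate 2 (percentiles 91.2 and 75.6). Its peak (V:20756390-20756709) lay in an intron, 360 bp upstream of one of its 3 annotated 5′ ends. With only the most upstream 5′ end of each gene, pha-4 stood at percentile 55.4. ceh-51 (V:18874133-18875982), an NK-2 class homeobox gene of the MS lineage, had 38.5 in the series list (percentile 71.6), with 20.1 in replicate 1 and 15.99 in replicate 2. Its summit lay 800 bp upstream, inside an intron of the neighbouring gene emb-4. ceh-22 (V:10671918-10675769), an NK-2 class homeobox gene of pharyngeal muscle, had 29.6 in the series list (percentile 56.5) and no ranked summit in either replicate.

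The epidermal class held both high and absent values. elt-1 (IV:9614995-9620280), the GATA factor gene that specifies epidermis, had 63.6 in the series list (percentile 93.4). Its values were 39.7 in replicate 1 and 21.1 in replicate 2 (percentiles 95.5 and 71.9), so the replicates placed it on different sides of the top 10%. The peak (IV:9618862-9619181), with a −log10 IDR of 1.70, lay in an intron, 316 bp upstream of one of 6 annotated 5′ ends; with only the most upstream end, elt-1 stood at percentile 51.2. nhr-25 (X:13008493-13013964), a nuclear receptor gene of the Ftz-F1 type that acts in epidermal cells, had 50.5 in the series list (percentile 85.99), with 35.4 in replicate 1 and 27.04 in replicate 2 (percentiles 93.4 and 84.9). The series peak was intergenic (X:13007933-13008252), with its summit 400 bp upstream of a 5′ end. The strongest replicate 2 summit of nhr-25 lay elsewhere, and replicate 2 had 19.2 at the series summit.

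nhr-23 (I:7214745-7221299), a nuclear receptor gene needed for moulting, had 35.7 in the series list (percentile 67.3), 16.5 in replicate 1 and no ranked summit in replicate 2. lin-26 (II:7682198-7684764), a zinc-finger gene that keeps epidermal fate, had 12.3 in the series list (percentile 34.2), no ranked summit in replicate 1 and 20.7 in replicate 2. The series summit of lin-26 lay 896 bp upstream in a coding exon of lir-1, and was counted for both genes. The strongest replicate 2 summit lay elsewhere, and replicate 2 had 10.3 at the series summit. elt-3 (X:13934874-13941216), a GATA factor gene of the hypodermis, had no ranked summit in the series list or in replicate 1, but 37.4 in replicate 2 (percentile 95.1) and 55.0 in the other ranked list of the series. Values for elt-3 therefore depended on the list read.

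Among the neural regulators ztf-11 (I:9904303-9910545), a zinc-finger gene of the Myt1 type, had the highest value and, of the 3 with a ranked summit in both replicates, the closest replicates. It had 56.1 in the series list (percentile 89.8) and 29.9 in each replicate (percentiles 87.8 and 89.0), with its summit 302 bp upstream of a 5′ end and a −log10 IDR of 1.21. vab-15 (X:9847275-9849805), an Msx-type homeobox gene needed for touch receptor neurons, had 53.4 in the series list (percentile 88.1) and 25.4 in replicate 1 (percentile 80.01), but no ranked summit in replicate 2. Its peak (X:9846755-9847074) was intergenic, 360 bp upstream. unc-30 (IV:13118977-13124406), the Pitx-type gene of GABA neurons, had 34.2 in the series list (percentile 64.7), with 25.5 in replicate 1 and 7.26 in replicate 2.

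The 3 proneural bHLH genes of the class stood below ztf-11, vab-15 and unc-30 in the series list. lin-32 (X:2229055-2230122), the Atonal-type gene, had 29.2 in the series list (percentile 55.8), with 12.9 in replicate 1 and 29.1 in replicate 2 (percentiles 48.8 and 88.1). hlh-14 on chromosome II, of the Achaete-scute type, had a ranked summit only in replicate 2, with 18.9 (percentile 65.6). cnd-1 on chromosome III, of the NeuroD type, had none in any ranked list. ceh-36 on chromosome X, an Otx-type gene of sensory neurons, had one only in replicate 1, with 29.1 (percentile 86.8).

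The REF-1 family had the fewest ranked summits. ref-1 (II:10218471-10220022) had 24.8 in the series list (percentile 48.6), 458 bp upstream of its 5′ end, and hlh-29 (X:17547492-17548639) had 16.3 (percentile 37.8), 45 bp upstream. Neither had a ranked summit in either replicate, and hlh-25, hlh-26, hlh-27 and hlh-28 had none in any ranked list. Several of these genes are near-copies of each other. The windows of hlh-28 and hlh-29 are 92.0% identical, and only 27.5% and 28.0% of their 36-base words occur once in the genome; for hlh-25 and hlh-27, whose windows are 76.4% identical, the shares are 73.4% and 73.7%. Of 349 coding genes with such a share under 30%, 20.9% had a ranked summit in the series list, against 60.4% of the genes under 80% and 70.7% of those at 80% or more. The window of hlh-26, at 100%, and that of ref-1 are nearly free of shared words. The part that shared sequence plays in the missing summits was not tested.

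The 6 positional homeobox genes each had a ranked summit in the series list (against 69.9% of coding genes) and in replicate 2 (against 58.8%), and 4 of them had one in replicate 1 (against 59.5%). ceh-13 (III:7555660-7558041), the labial-type Hox gene of the anterior body, had the highest value of all 36 genes. It had 91.9 in the series list (percentile 97.8), 46.5 in replicate 1 (percentile 97.4) and 43.2 in replicate 2 (percentile 97.0). Its intergenic peak (III:7554716-7555035) has its summit at 7554876, 784 bp upstream of the 5′ end, and a −log10 IDR of 2.21, the highest among the members. The window of ceh-13 held no other ranked summit in the series list or in either replicate. With a window of 500 bp upstream to 100 bp downstream it had none, and took the percentile of 22.7 shared by such genes.

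nob-1 and php-3 are neighbouring posterior Hox genes on chromosome III, 237 bp apart. nob-1 (III:12077793-12084316) had 46.5 in the series list (percentile 82.2), with 20.8 in replicate 1 and 20.6 in replicate 2 (percentiles 69.0 and 70.5), and php-3 (III:12074218-12077556) had 31.5 (percentile 59.9), with 13.2 and 16.7 in the replicates. ceh-27 (V:11661549-11665102), an NK-2 class gene, had 53.5 in the series list (percentile 88.2), with 28.0 in replicate 1 and 30.4 in replicate 2, though the replicates' strongest summits lay elsewhere in its window. vab-7 (III:10920344-10926041), the even-skipped homolog of the posterior, had 35.9 in the series list (percentile 67.7), no ranked summit in replicate 1 and 25.02 in replicate 2. ceh-32 (V:11701764-11705400), of the sine oculis family and active in the head, was the lowest of the class with 9.12 (percentile 32.3), no ranked summit in replicate 1 and 10.2 in replicate 2.

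Set side by side, the classes did not keep one order in the replicates. Median percentiles in the series list were 67.3 for the epidermal genes, 65.0 for the mesoderm genes, 55.8 for the neural genes and 42.5 for the endoderm genes. In replicate 1 the neural genes were highest at 80.01, followed by the epidermal genes at 57.0, the mesoderm genes at 56.6 and the endoderm genes at 20.2, the value of a gene without a ranked summit. In replicate 2 the neural genes were lowest of these 4 classes at 42.7, below the endoderm genes at 60.7, the mesoderm genes at 65.1 and the epidermal genes at 71.9. The SD between the replicates was 28.6 points for endoderm, 26.4 for neural, 10.5 for epidermal and 5.98 for mesoderm genes (n = 2 each). The gap between the highest and the lowest of the 4 class medians in the series list is thus smaller than the SD of the endoderm or the neural class. With 1 group and 2 replicates no test over samples exists for these differences. With only the most upstream 5′ end of each gene the epidermal median was 36.3, below the endoderm median of 45.5. In the other ranked list of the series the epidermal median was 85.999, so the place of that class depended on the 5′ ends and the list read. The place of the endoderm class depended on the window as well. With 2000 bp upstream its median was 55.5, above the mesoderm median of 52.2 and the neural median of 42.3.

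In both replicates the epidermal median stood above the mesoderm median, by less than 1 SD of either class in replicate 1. For the positional genes the medians were 75.0 in the series list, 59.1 in replicate 1 and 76.0 in replicate 2. For the REF-1 family they were 15.1, 20.2 and 20.6, the values of genes without a ranked summit, tied with endoderm in replicate 1 and lowest of the 6 classes elsewhere.

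Signal values of the replicates were compared for the 15 members with a ranked summit in both. On the log10 scale their signal values gave a Pearson's r of 0.32 and a Spearman's rho of 0.46, against 0.51 and 0.43 across the 9048 coding genes with a ranked summit in both. Genes are not independent replicates, and these values are a description. The median difference between the replicates' percentiles was 13.8 points over all 36 members and 11.7 over all coding genes. Both medians are lowered by genes with no ranked summit in either replicate, whose percentiles are fixed at 20.2 and 20.6. Of the members without a ranked summit in both replicates, 3 had one only in replicate 1, 9 only in replicate 2 and 9 in neither. Among all 19973 coding genes these counts were 2840, 2692 and 5393. Replicates placed a summit within 100 bp of the strongest series summit, both of them, for 10 of the 27 members (37.04%), against 40.3% of coding genes. These were ceh-13, hlh-1, pha-4, elt-1, ztf-11, nhr-25, nob-1, med-2, ceh-51 and hnd-1. That set holds each of the 4 members in the top 10% of the series list. No REF-1 gene could enter it, as none had a ranked summit in either replicate. A replicate's strongest summit could still lie over 100 bp from the series summit. In replicate 1 it did so for hnd-1, lin-32, php-3 and ceh-27. In replicate 2 it did so for med-1, elt-7, lin-26, nhr-25, unc-30, nob-1, php-3 and ceh-27.

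**Figure D2:**
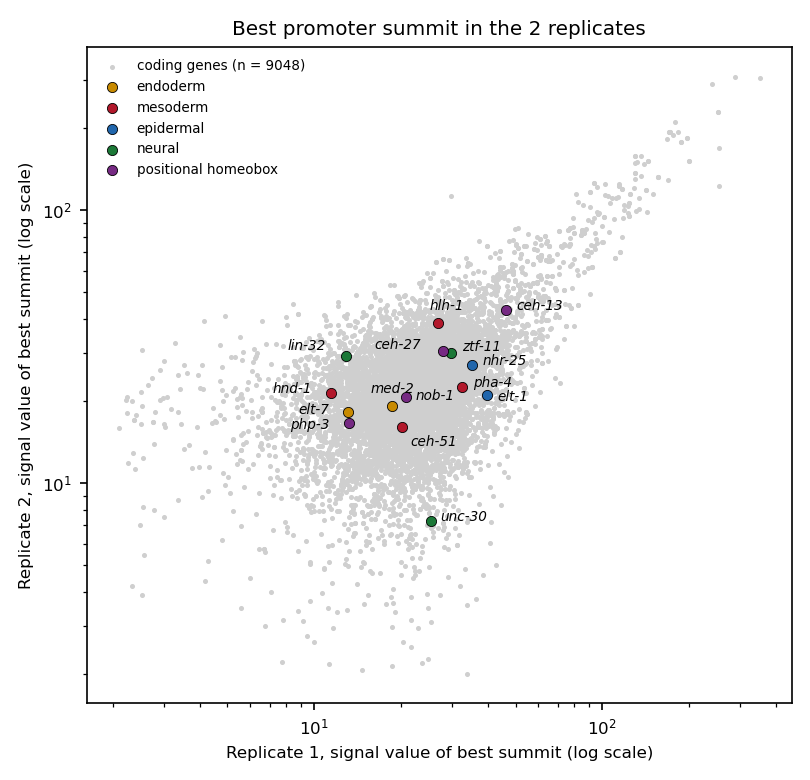
Signal value of the strongest promoter summit in replicate 1 (x axis, log scale) and replicate 2 (y axis, log scale) for the 15 members with a ranked summit in both (coloured by class) and 9048 coding genes (grey). ceh-13 is the member with the highest value in each replicate, and unc-30, at 25.5 and 7.26, has the lowest replicate 2 value of the 15.

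Most of the strongest summits lay upstream of an annotated 5′ end, though not always outside the gene. Those of pha-4, ceh-22, elt-1, nhr-23 and ceh-27 lay upstream of 1 end but in an intron of the gene itself. Of the 27 members with one in the series list, 23 had it upstream of the nearest 5′ end (85.2%, against 81.2% of coding genes), at a median of 302 bp upstream against 334 bp. By annotation 15 summits were intergenic (55.6%, against 51.6%), 8 were in an intron (29.6%, against 16.7%), 3 in a coding exon (11.1%, against 23.7%) and 1, that of unc-30, in a 5′ UTR (3.70%, against 5.43%). None of these 27 summits had a small RNA gene (tRNA, snoRNA or snRNA) within 100 bp. The share over all coding genes is not given here, so this does not set the members apart. The −log10 IDR was at least 1 at 7 of the 27 summits (25.9%, against 13.3%), and at least 2 only at ceh-13 (3.70%, against 4.69%). GC content around the summits had a median of 40.3%, against 38.8%.

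Genes with more annotated 5′ ends are searched over a longer window. Of the members 23 have 1 such end (63.9%, against 73.7% of coding genes), while elt-1, elt-3 and nhr-23 have 6 each. Among all coding genes the median percentile was 44.7 with 1 end, 59.8 with 2 ends and 73.6 with 3 or more. Of the 4 members in the top 10% of the series list, hlh-1 has 4 ends, pha-4 has 3 and elt-1 has 6, and ceh-13 has 1. With only the most upstream end, hlh-1 stood at percentile 96.4 and ceh-13 at 97.95.

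**Figure D3:**
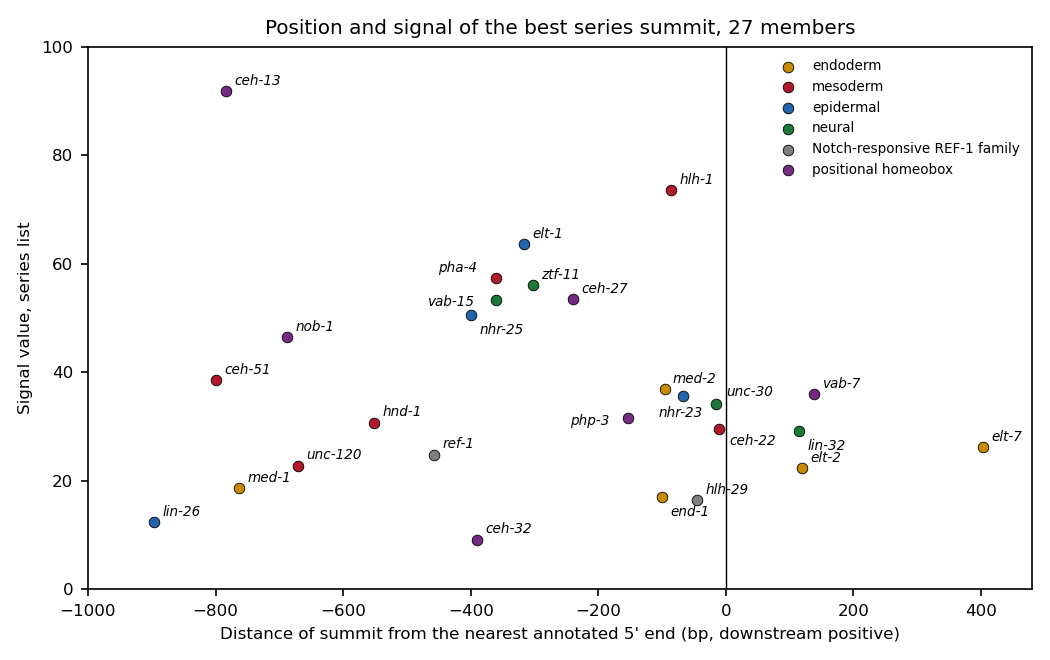
Distance of the strongest series summit from the nearest annotated 5′ end (x axis, bp, downstream positive) and its signal value in the series list (y axis) for the 27 members with one, coloured by class. Of these summits 23 lie to the left of the line at 0, and the highest, at ceh-13, lies 784 bp upstream.

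Strong sites near members but outside the window were sought among the conservative peaks. Within 5000 bp of a 5′ end, 5 of the 36 members had a conservative summit (13.9%, against 12.1% of coding genes): ceh-13, elt-3, med-2, lin-32 and hlh-27. The site of elt-3 lay inside the gene, in an intron 1543 bp upstream of the nearest of its 5′ ends (X:13937040-13937359). It had a signal value of 112, with 50.7 in replicate 1 and 55.3 in replicate 2, no small RNA gene within 100 bp, and a peak in the own thresholded list of replicate 2. The other series ranked list holds that peak, and the series ranked list read above does not. That absence was uncommon: of 1196 peaks with a signal value of at least 80 in the other list, 5 (0.418%) had no peak of the same coordinates in the list read above.

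The other strong sites near members lay at small RNA genes. Those of med-2 (III:6887631-6887950, signal value 169, and III:6888515-6888834, signal value 103) lay in an intron of brd-1 at tRNA genes, 3288 and 4172 bp downstream of the 5′ end. That of lin-32 (X:2227051-2227370, signal value 190) lay at a tRNA gene 2911 bp downstream, with 92.9 in replicate 1 and 92.8 in replicate 2. That of hlh-27 (II:5543525-5543844, signal value 220) lay at the snRNA gene sls-2.2, 3472 bp upstream, with 113 in replicate 1 and 92.8 in replicate 2, beside a weak conservative peak (II:5543727-5544046, signal value 13.7) that had no small RNA gene within 100 bp.

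Other genes of the same relay were read in the same way, from lists written for this comparison with earlier results of these data known. Of 25 maternal regulators and early signalling genes, 24 had a ranked summit in the series list (against 69.9% of coding genes), 5 had a conservative summit (against 3.28%) and 8 stood in the top 10%. Their median percentile was 82.3 in the series list, 82.1 in replicate 1 and 85.0 in replicate 2. mom-1, which acts in Wnt secretion, had 367, with 170 in replicate 1 and 193 in replicate 2, at a summit within 100 bp of a tRNA gene. mex-1, which encodes an RNA-binding protein, had 117, with 59.2 and 54.3 in the replicates, and spn-4, also of an RNA-binding protein, had 101.6, with 52.6 and 45.8. lit-1, the Nemo-like kinase gene of the Wnt pathway, had 87.2, with 57.1 and 46.9, and the fifth, mex-3, of a further RNA-binding protein, had 81.5, with 37.6 and 45.6. Of the genes for the 2 maternal regulators described above, SKN-1 and PAL-1, skn-1 had 39.1 (percentile 72.5) and pal-1 had 60.8 (percentile 92.3). Neither had a conservative summit. These 2 were named after their values were seen, and other genes of the list that may act on members are not singled out.

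Of 46 other zygotic lineage regulators 44 were matched to coding genes, leaving out elt-5 and lsy-6. A ranked summit was found for 37 of them (against 69.9% of coding genes), a conservative summit for 3 (against 3.28%), and 5 stood in the top 10%, with median percentiles of 67.4 in the series list, 61.3 in replicate 1 and 66.3 in replicate 2. The 3 were egl-27, a chromatin regulator gene, with 118.6 (49.2 and 70.3 in the replicates), unc-62, the Meis-type homeobox gene, with 90.8 (40.2 and 53.0), and tbx-2, a T-box gene of pharyngeal muscle, with 82.0 (41.5 and 37.5). Among the proneural bHLH genes of this list, hlh-3 had 80.6 (percentile 96.9) and a summit in the second thresholded list, and ngn-1 had 46.3 (percentile 82.0). Of 27 terminal differentiation genes, 25 had a ranked summit (against 69.9% of coding genes), 3 a conservative summit (against 3.28%) and 6 stood in the top 10%, with median percentiles of 68.3, 64.2 and 70.1. Their 3 were syd-2, the liprin gene of synapses, with 148 (89.1 and 61.2), ajm-1, an apical junction gene, with 113 (91.0 and 49.4) at a tRNA gene, and dpy-17, a cuticle collagen gene, with 78.7 (38.1 and 45.3). In the series list and in each replicate, the 36 members had a lower median percentile than any of the 3 lists; with 1 group of samples this difference has no test.

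**Figure D4:**
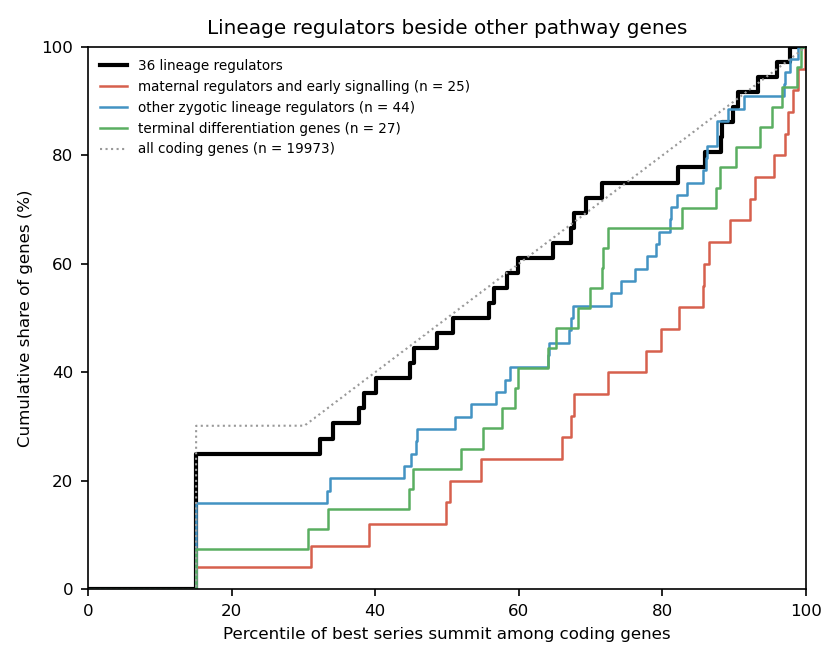
Cumulative share of genes (y axis, %) at or below each percentile of the strongest series summit (x axis) for the 36 lineage regulators (black), 3 lists of other pathway genes (coloured) and all coding genes (dotted). The black line runs near the dotted line, and the line of the 25 maternal and early signalling genes lies to the right, with a median of 82.3 against 53.4.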

How the data were processed

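ChIP-seq peak lists of 2 replicates were analysed, on assembly ce11 per the labels. The authors deposited for each peak a signal value, with no normalization stated, a summit offset and, in ranked lists, a score, the −log10 IDR. Which aligner and peak caller they used, and the depth, is not given in the sources used here, so no counting error could be set. Replicates' lists have no stated common scale, so percentiles were compared. Signal values are the authors' and only rank peaks within a list. Windows used Ensembl release 115 (WBcel235); 1 gene's value is its highest summit, genes without one take 0, and ties share a mean rank. Of the ranked series lists, that read here carried a replicate's coordinates in at most 0.000963% of rows and the other in 63.5% (replicate 1) and 61.8% (replicate 2). Analyses used Python 3.11.15, numpy 2.4.6, scipy 1.17.1 and matplotlib 3.10.9, and the steps were tested on simulated data.

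Members and lists were chosen with earlier results of these data known. Values in the series list and both replicates were planned for members with a thresholded summit and members with no ranked summit. They were also planned for the highest 3 and the lowest of each class. Of the other lists, up to 4 genes with a conservative summit were named. After their values were seen, mex-3, skn-1, pal-1 and the bHLH genes were named too. The other members' values are given as well. Alternatives changed the window, the 5′ ends, the series list, summits at small RNA genes, the class of 6 genes, and left out each replicate.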

Additional observations from a re-analysis of the deposited data

How the results depend on the processing

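The count of members with a conservative summit was 1 (ceh-13). It was 0 with a window of 500 bp upstream to 100 bp downstream, where 2.29% of coding genes had one, and 2 (ceh-13 and elt-3) with 2000 bp upstream, where 4.56% of coding genes had one. Over the gene body and 5000 bp upstream, an alternative chosen after seeing the data, it was 3 (ceh-13, elt-3 and hlh-27), against 9.33% of coding genes. In the own lists of the replicates, leaving out each replicate in turn, it was 0 to 0. Leaving out a replicate moved the median percentile of the 36 genes from 53.4 to between 33.3 and 58.4, and that of the mesoderm genes from 65.0 to between 56.6 and 65.1. The top 10% held 7 members in place of 4 with the shortest window: ceh-27, elt-1, hlh-1, nhr-25, pha-4, vab-15 and ztf-11. The mesoderm median was 52.2 with 2000 bp upstream, 58.7 with the most upstream 5′ end and 48.2 over the gene body. The epidermal median was 79.1 with the shortest window, 79.4 with 2000 bp upstream, 36.3 with the most upstream end and 85.999 in the other series list. The endoderm median was 52.9 with the shortest window, 55.5 with 2000 bp upstream and 45.5 with the most upstream end. For the neural genes these medians were 67.7, 42.3 and 59.4. With the class of 6 genes changed, the endoderm, mesoderm and neural medians were 41.6, 63.9 and 55.8. The cause of these moves was not tested. Of the 36 percentiles, 5 moved by over 10 points in the other series list, 4 with the most upstream end and 0 without summits at small RNA genes. More moved that far with other windows: 16 with the shortest window, 18 with 2000 bp upstream and 20 over the gene body. Leaving out replicate 1 moved 21 of them by over 10 points, and leaving out replicate 2 moved 17. No paired analysis was possible because there is 1 group.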

Other observations

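In the other ranked list of the series, which compares the replicates, 5 members stood over 10 percentile points from their value in the list used above. end-3 had a signal value of 44.9 there (percentile 80.3) and elt-3 had 55.0 (percentile 89.2), both without a ranked summit in the list used above. ceh-22 had no ranked summit there, against 29.6. php-3 had 38.3 (percentile 71.2), against 31.5, and ceh-32 had 25.1 (percentile 48.9), against 9.12. The median percentile of the 36 members was 55.0 in that list, and the same 4 members stood in its top 10%.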
